A study of Mus musculus with 18 samples.

Results

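DNA methylation in mouse embryonic stem cells (ESCs) is written, copied and removed by a small set of enzymes, and 9 of them were followed here through polysome gradients of cells with and without microRNAs. The genes were Dnmt1, Dnmt3a, Dnmt3b, Dnmt3l, Uhrf1, Tet1, Tet2, Tet3 and Tdg, taken as the rows of the count table whose Ensembl identifiers carry these symbols. All 9 were among the 51467 genes in the table and all 9 were among the 12851 genes with enough reads to test. They were chosen by name, because loss of microRNAs had been reported to lower DNA methyltransferases through Rbl2.

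Wild-type (WT) cells of the V6.5 ESC line were compared with Dgcr8 knockout (KO) ESCs, a single line that was derived earlier. DGCR8 is needed to process primary microRNA transcripts, so the KO cells lack canonical microRNAs. Both genotypes were grown in serum with LIF and the inhibitor pair called 2i (PD0325901 and CHIR99021), and both received cycloheximide (100 ug/ml, 2 minutes) to keep ribosomes in place on messages. Each of the 3 gradients per genotype, run from 10 to 50% sucrose, was collected as monosomes, low polysomes (2 to 4 ribosomes) and high polysomes (4 or more), which gave 18 libraries in 6 groups of 3. Whether the gradients of a genotype came from separate cultures is not given in the sources used here, so p-values measure the spread between gradients.

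DNMT1 copies methylation onto newly made DNA, and UHRF1 binds hemimethylated sites and brings DNMT1 to them. DNMT3A and DNMT3B add methylation at new sites, and DNMT3L has no catalytic activity of its own but stimulates them. The TET enzymes oxidise 5-methylcytosine, and TDG cuts the further oxidised bases out so that base excision repair can restore cytosine. ESCs kept in 2i are known for low levels of DNA methylation, and in microRNA-deficient ESCs the repressor RBL2, a member of the retinoblastoma family that binds E2F factors, has been tied to the expression of the DNMT3 genes.

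The microRNAs that need DGCR8 include the miR-290 and miR-302 families, which share the seed AAGUGCU (bases 2 to 8). In the paper, naive ESCs of a reporter line were positive for miR-290 and negative for miR-302. The miR-29 family is known to target DNMT3 and TET messages. Levels of microRNAs were not measured here, so their presence in the WT cells was not tested. Mature sequences of members of these families, from RefSeq (GRCm38.p6), are shown. The seed is in capitals because the sites below pair with these bases.
mmu-miR-291a-3p: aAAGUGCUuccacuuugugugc
mmu-miR-294-3p: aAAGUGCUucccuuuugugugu
mmu-miR-302b-3p: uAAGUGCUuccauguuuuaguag
mmu-miR-29a-3p: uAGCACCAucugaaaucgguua

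Matches to the AAGUGCU seed were searched on the sense strand in the longest annotated 3′ UTR of each gene, as the letters AGCACTT, as the letters GCACTTA or as the form AGCACTTA that joins both. Of 21045 mouse 3′ UTRs, 17.7% held at least 1 match. Among the 9 enzymes they were in the 3 Tet genes alone, with 2 matches in Tet1, 1 in Tet2 and 3 in Tet3, and Rbl2 held 1. The 3′ UTRs of the Tet genes are long, and 67.2, 37.5 and 57.7% of UTRs of 0.8 to 1.25 times the length of those of Tet1, Tet2 and Tet3 held a match too, as did 598 of 3151 UTRs near the length of that of Rbl2. The match in Rbl2 (chr8:91123820-91123844, plus strand, GRCm38) is the 8-base form and lies at position 1384 of a UTR of 1398 bases. It is printed with 1 site from each Tet gene, the match in capitals, on GRCm38 and the strand of the gene: Tet1 chr10:62811876-62811902, Tet2 chr3:133465905-133465931 and Tet3 chr6:83366202-83366228, all minus.
Rbl2: ttttcaataaAGCACTTAtaaatta
Tet1: tattttaaaaAGCACTTtctactttta
Tet2: gtcttagaaaAGCACTTtgcctaccta
Tet3: gatttttttaAGCACTTttgcctagat

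For the miR-29 seed AGCACCA the letters TGGTGCT, the letters GGTGCTA or their joined form TGGTGCTA were in 3373 of the 21045 3′ UTRs. Dnmt3a held 6, Dnmt3b 2, Tet1 8, Tet2 5, Tet3 10 and Tdg 3, whereas Dnmt1, Dnmt3l and Uhrf1 held none in 3′ UTRs of 312, 273 and 984 bases. Of UTRs near the length of that of Dnmt3a, 54.7% held a match, and of those near the length of that of Dnmt3b 15.5% did. The same share was 59.7, 32.3, 50.2 and 24.3% for the lengths of Tet1, Tet2, Tet3 and Tdg. It was 4.5, 3.89 and 12.4% for those of Dnmt1, Dnmt3l and Uhrf1, so short UTRs seldom held a match. An 8-base match of Dnmt3a (chr12:3911464-3911491, plus strand) and a match of Dnmt3b (chr2:153686617-153686643, plus strand) are shown, again with the match in capitals on GRCm38. A match is a stretch of letters, and binding at these positions was not measured.
Dnmt3a: ggtcccaagcTGGTGCTAattcctctca
Dnmt3b: tagcccggcaTGGTGCTcatgttctct

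The libraries held 1151649 to 4984833 counts each, with the monosome libraries the smallest in both genotypes. Spearman's rho with the other libraries of a group averaged 0.969 to 0.986 over the genes tested, so no library stood apart on all genes. Dgcr8 reads were lower in KO cells (log2 change of -0.56, -0.45 and -1.01 in monosomes, low polysomes and high polysomes, adjusted p = 0.0185, 0.0223 and 2.76e-04, limma) and were not lost, with 38 counts or more in every library. All 8 naive ESC markers were tested, with a summed level of 2398 to 3792 CPM in WT and 2388 to 3194 CPM in KO libraries. The 6 formative epiblast markers summed to 58.2 to 106 and 67.3 to 127 CPM, with Fgf5 at 3 counts or fewer everywhere. The 6 primitive endoderm markers summed to at most 7.93 and 8.61 CPM, with Gata6 and Sox7 at 3 counts or fewer, and the 6 fibroblast markers to at most 12.3 and 21.8 CPM, with Postn and Twist2 at 3 counts or fewer. Single markers moved with genotype (named after their values were seen). Of the naive markers Pou5f1 fell by 1.42 in high polysomes (adjusted p = 5.73e-09), Klf4 by 0.93 (adjusted p = 2.60e-08) and Zfp42 by 0.51 (adjusted p = 0.001), with 3 falls and no rise there, 2 of each in monosomes, and 3 rises and 2 falls in low polysomes. Of the formative markers Pou3f1 fell in monosomes, low and then high polysomes (-2.83, -2.20 and -3.36), and Lef1 (2.05, 1.75 and 1.07) and Zic2 (0.95 in monosomes and 0.87 in high polysomes) rose in all 3. The primitive endoderm marker Pdgfra rose in high polysomes (1.26, adjusted p = 0.0472), and the fibroblast marker Col1a1, with 120 reads in all libraries, fell in each fraction (-2.78, -2.22 and -1.59). The part of these markers in the results was not tested.

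Levels are given as CPM (counts scaled to library size) of reads at 3′ ends, scaled by the trimmed mean of M values (TMM). They are shares of a fraction and not amounts per cell. In bulk fractions, fewer cells of a kind and less RNA per cell cannot be told apart. Reads at 3′ ends do not separate forms of a gene that start at different promoters and share an end, such as the long and short forms of Dnmt3a. A gene rose or fell below where its adjusted p was under 0.05, and was called where its log2 change was also over 1 in size.

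**Figure D1:**
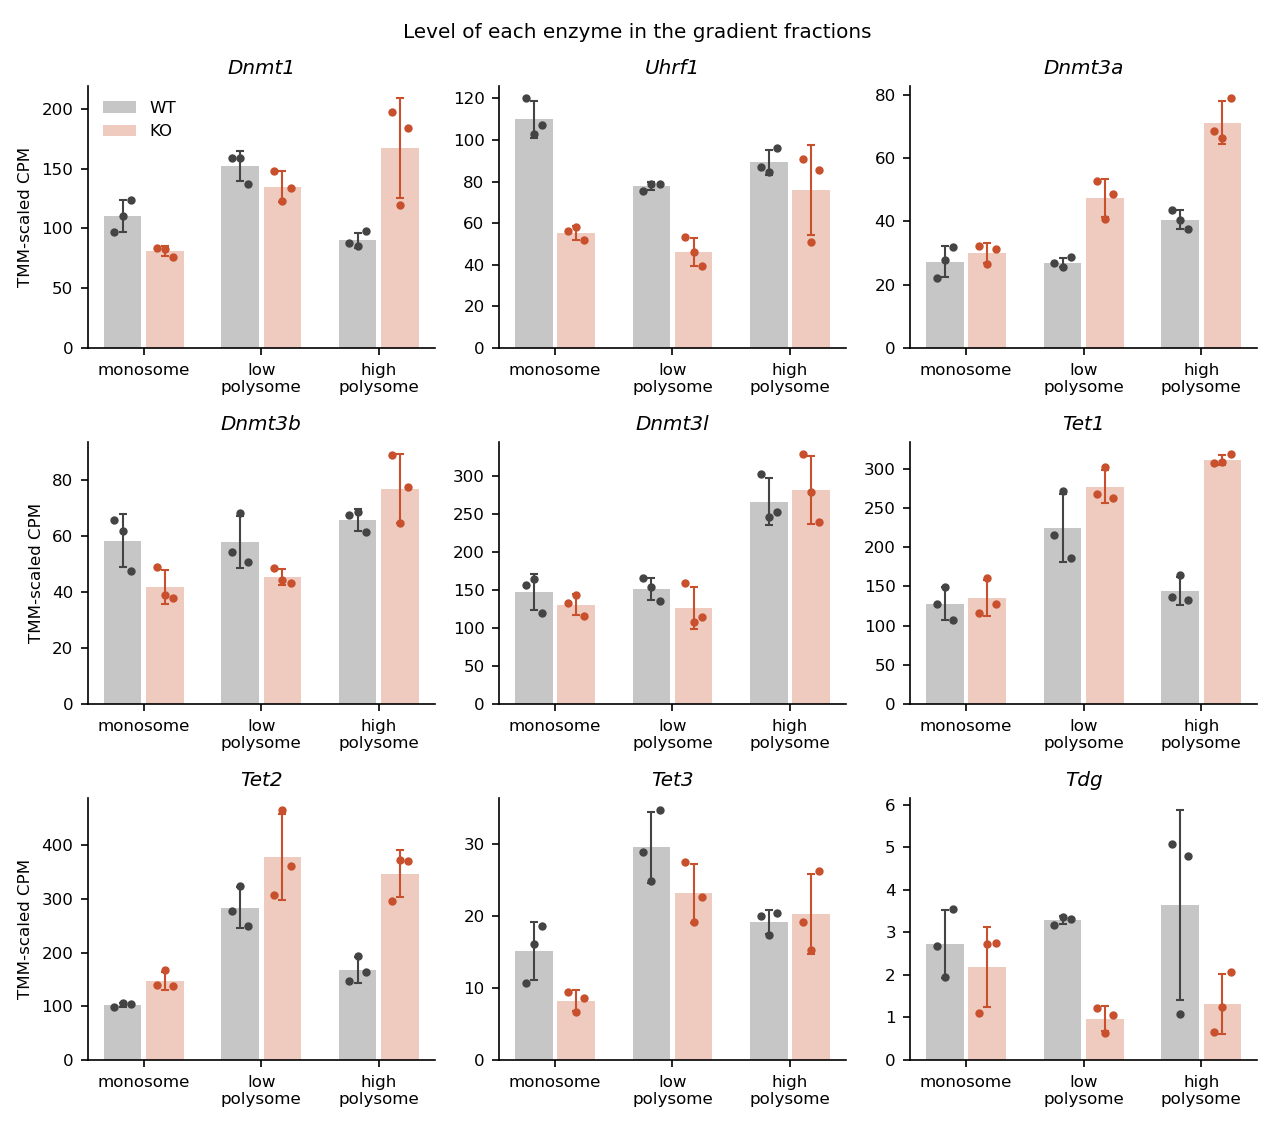
Level of the 9 enzymes in TMM-scaled CPM (y axis, from 0, a scale of its own for each gene) in monosomes, low and high polysomes of WT (grey) and KO (red) cells. Points are libraries, bars means and whiskers SD (n = 3). In high polysomes the 3 KO libraries of Tet1 sit between 307 and 318 CPM and the 3 WT libraries between 132 and 164 CPM.

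The first question was how the messages of these enzymes differed between genotypes within each fraction. In monosomes, 4 of the 9 fell in KO cells (Dnmt1, Dnmt3b, Uhrf1 and Tet3) and 1 rose (Tet2), where 19.9% of all genes fell and 17.5% rose. None was called by limma, edgeR or DESeq2, against 18.1% of all genes with limma. In high polysomes, the picture was another: 4 rose (Dnmt1, Dnmt3a, Tet1 and Tet2) and none fell, where 29.1% of all genes rose and 31.6% fell. Tet1 and Tet2 were called, and 33.1% of all genes were. In low polysomes, 3 rose (Dnmt3a, Tet1 and Tet2) and 3 fell (Dnmt3b, Uhrf1 and Tdg), where 26.1% of all genes rose and 26.2% fell, and Tdg was called, against 25.0% of all genes. Over the 9, the median log2 change in monosomes was -0.30, in low polysomes -0.27 and in high polysomes 0.22, and that of all genes -0.051, 0.0042 and -0.082. The count in monosomes rests on the scaling and on single gradients: when libraries were scaled by total counts, or with no filter on low counts, only Uhrf1 fell, and without WT replicate 2 or without KO replicate 3 only 1 of the 9 fell. With total counts the median of all genes shifted by 0.10 in monosomes and -0.22 in high polysomes, and in high polysomes Uhrf1 and Tdg then fell as well, while edgeR, DESeq2 and a block for the replicate number added a fall of Tdg. With total counts neither Tet1 (0.89) nor Tet2 (0.82) kept its call in high polysomes, although both still rose, and Tdg was called lower. Without WT replicate 1 or without KO replicate 3, Tet1 alone was called in high polysomes, and without KO replicate 2 Dnmt1 was called in place of Tet2.

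Dnmt1 (ENSMUSG00000004099, chr9:20907209-20959888, minus strand) showed the most opposed changes of the group. In WT cells its level was 97.1, 110.4 and 124 CPM in the 3 monosome libraries, 159, 159 and 137 CPM in low and 87.4, 85.4 and 97.5 CPM in high polysomes. In KO cells it was 83.9, 83.1 and 76.0 CPM, then 148, 123 and 134 CPM, then 197, 119.6 and 184 CPM. All KO libraries thus lay below all WT libraries in monosomes and above them in high polysomes, while the low polysome libraries overlapped. The fall in monosomes was -0.44 on the log2 scale (SE 0.16, adjusted p = 0.0305) and the rise in high polysomes 0.86 (SE 0.14, adjusted p = 1.92e-06), a 1.81-fold difference. In low polysomes the change was -0.17 (SE 0.14, adjusted p = 0.32). The rise in high polysomes passed in all 14 alternative fits (0.64 to 1.08), and the fall in monosomes in 9 of 14, being lost among others without WT replicate 2 or 3 and without KO replicate 3. The order of the 6 groups ran from KO high polysomes over WT and KO low polysomes to WT monosomes, WT high polysomes and KO monosomes, and only the last pair of neighbours did not overlap.

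Uhrf1 (ENSMUSG00000001228, chr17:56303321-56323486, plus strand), the partner of DNMT1, was the member that fell most firmly. Its monosome libraries held 119.9, 103 and 107 CPM in WT and 56.1, 58.2 and 51.7 CPM in KO cells. The low polysome libraries held 75.5, 78.9 and 78.9 against 53.2, 46.1 and 39.4 CPM, and the high polysome libraries 87.0, 84.7 and 96.2 against 90.9, 50.9 and 85.7 CPM. KO and WT were apart in monosomes and low polysomes and overlapped in high polysomes, where KO replicate 2 was the lowest library. The log2 change was -0.99 in monosomes (SE 0.17, adjusted p = 1.25e-05), just inside the fold threshold, and -0.77 in low polysomes (SE 0.16, adjusted p = 8.74e-05), and both passed in all 14 alternatives. In high polysomes it was -0.28 (95% interval -0.58 to 0.028, adjusted p = 0.11), and it ranged from -0.41 to -0.020 when each gradient was left out in turn, the latter without KO replicate 2. It passed in 3 of 14 alternatives, without KO replicate 1 (-0.41, adjusted p = 0.0204), without KO replicate 3 (-0.40, adjusted p = 0.0452) and with total counts (-0.50, adjusted p = 0.00386). The highest level was in WT monosomes and the lowest in KO low polysomes. Of the 50-base windows of its transcript, 18.9% recur in other genes (pseudogenes Gm15953 and Gm5648), and none of those in the last 500 bases do, where 3′ end reads fall.

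Of the DNMT3 genes, Dnmt3a (ENSMUSG00000020661, chr12:3806007-3914443, plus strand), a de novo methyltransferase, rose in both polysome fractions. In WT cells its level was 22.1, 27.7 and 31.8 CPM in monosomes, 26.8, 25.7 and 28.6 CPM in low and 43.7, 40.4 and 37.6 CPM in high polysomes. In KO cells the values were 32.2, 26.4 and 31.3 CPM, 52.6, 40.7 and 48.6 CPM, and 68.4, 66.2 and 78.8 CPM. The genotypes overlapped in monosomes and were apart in the polysomes, with every KO library above every WT library. The log2 change was 0.15 in monosomes (SE 0.21, adjusted p = 0.609), 0.80 in low polysomes (SE 0.15, adjusted p = 3.32e-05) and 0.82 in high polysomes (SE 0.14, adjusted p = 4.61e-06). The polysome changes passed in all 14 alternatives.

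Dnmt3b (ENSMUSG00000027478, chr2:153649450-153687730, plus strand), the other catalytic member, fell in monosomes and low polysomes by less than the fold threshold. It stood at 65.6, 62.0 and 47.7 CPM in WT monosomes and at 48.9, 38.8 and 38.0 CPM in KO monosomes. Low polysomes held 54.3, 68.3 and 50.9 CPM in WT and 48.6, 44.2 and 43.1 CPM in KO cells, and high polysomes 67.5, 68.5 and 61.5 against 88.9, 64.6 and 77.4 CPM. Only the low polysome libraries were apart. The changes were -0.51 (SE 0.18, adjusted p = 0.0217), -0.35 (SE 0.15, adjusted p = 0.0474) and 0.22 (SE 0.14, adjusted p = 0.185) in this order, and each of the 2 falls was held by 8 of 14 alternatives. The fall in monosomes was lost without WT replicate 1 or 2 and without KO replicate 2 or 3, and so was that in low polysomes. Its close paralogue Dnmt3c had no read in any library and shares 11.8% of its 50-base windows, none in the last 500 bases.

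Dnmt3l (ENSMUSG00000000730, chr10:78041947-78063622, plus strand), the cofactor without activity of its own, did not pass the test in any fraction, except in low polysomes when KO replicate 1 was left out (-0.44). WT cells held 157, 165 and 120.2 CPM in monosomes, 166, 154 and 136 CPM in low and 303, 246 and 253 CPM in high polysomes. KO cells held 133, 144 and 116, 159, 108 and 115, and 329, 279 and 239.9 CPM. The genotypes overlapped in every fraction, and in both the high polysomes were above the other 2 fractions. The 95% interval of the KO change ran from -0.49 to 0.14 for monosomes, from -0.56 to 0.016 for low polysomes and from -0.20 to 0.34 for high polysomes.

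Tet1 (ENSMUSG00000047146, chr10:62804570-62908996, minus strand), which opens demethylation by oxidation, was called higher in KO high polysomes. Its level in WT cells was 128, 149 and 107 CPM in monosomes, 215, 271 and 186 CPM in low and 137, 164 and 132 CPM in high polysomes. KO cells had 116, 160.4 and 128 CPM, 267, 302 and 263 CPM, and 307, 308 and 318 CPM. The KO high polysome libraries lay together above every other library, and in the other fractions the genotypes overlapped. High polysomes differed by 1.11 on the log2 scale (SE 0.13, adjusted p = 2.30e-09), or 2.16-fold, and it passed in all 14 alternatives with 0.89 to 1.24. It was 0.065 in monosomes (95% interval -0.24 to 0.37) and 0.32 in low polysomes (SE 0.13, adjusted p = 0.0381), where only 4 of 14 alternatives passed.

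Tet2 (ENSMUSG00000040943, chr3:133463679-133545139, minus strand) was the only member that rose in all 3 fractions. WT libraries held 98.4, 106 and 105 CPM in monosomes, 277, 325 and 249.6 CPM in low and 147, 194 and 164 CPM in high polysomes. KO libraries held 140.1, 168 and 137 CPM, 307, 465 and 362 CPM, and 297, 373 and 371 CPM. Monosomes and high polysomes of the genotypes were apart, and low polysomes, where WT cells had their highest level, overlapped. The log2 change was 0.52 (SE 0.16, adjusted p = 0.00932), 0.40 (SE 0.13, adjusted p = 0.0105) and 1.04 (SE 0.14, adjusted p = 1.61e-08, 2.06-fold). The monosome and high polysome changes passed in all 14 alternatives, and that of low polysomes was lost without KO replicate 2 and without WT replicate 3. The high polysome change was only just over the fold threshold. Its call was lost with total counts (0.82) and with a stricter filter of 10 CPM. It was also lost without WT replicate 1, without KO replicate 2 and without KO replicate 3.

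Tet3 (ENSMUSG00000034832, chr6:83362373-83459084, minus strand) had 16 to 115 counts per library, so its errors were wider. Monosomes held 10.7, 16.1 and 18.6 CPM in WT and 9.45, 6.60 and 8.62 CPM in KO cells, which did not overlap. Low polysomes held 28.9, 24.8 and 34.6 against 27.4, 19.2 and 22.6 CPM, and high polysomes 19.9, 17.3 and 20.4 against 19.2, 15.2 and 26.2 CPM, with overlap in both. It fell by 0.85 in monosomes on the log2 scale (SE 0.34, adjusted p = 0.0444), a change that passed in 8 of 14 alternatives and was lost without WT replicate 2 or 3 and without KO replicate 2 or 3. In low and high polysomes the change was -0.35 (adjusted p = 0.115) and 0.069 (adjusted p = 0.793).

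Tdg (ENSMUSG00000034674, chr10:82629828-82650799, plus strand), the glycosylase of the last step, was close to the limit of these libraries, with 2 to 15 counts in each. WT cells gave 4, 3 and 4 counts in monosomes, 9, 12 and 11 in low and 13, 3 and 15 in high polysomes. KO cells gave 2, 7 and 7 counts, 4, 2 and 4 counts, and 2, 4 and 9 counts. Only in low polysomes were the genotypes apart, at 3.17, 3.35 and 3.31 CPM in WT and 1.23, 0.641 and 1.05 CPM in KO cells. This was the call of the low polysome comparison (log2 change -1.64, SE 0.58, adjusted p = 0.0153), and without KO replicate 2 it was -1.43 with an adjusted p of 0.0632. No KO library of Tdg was above 2.74 CPM, so Tdg passed the filter of 3 CPM in 3 libraries through WT libraries alone. All 3 WT low polysome libraries were among these, so the call is not independent of the filter. The changes in monosomes (-0.30, 95% interval -1.57 to 0.97) and high polysomes (-1.18, 95% interval -2.30 to -0.052, adjusted p = 0.065) were too imprecise to be called. Over 7151 genes, the deviations of KO and WT high polysome libraries of 1 number correlated at 0.144, 0.131 and 0.168. Tdg itself did not follow this in replicate 1, the highest WT library (5.07 CPM) and the lowest KO library (0.661 CPM). With the replicate number as a block the Tdg change in high polysomes was -1.24 (adjusted p = 0.0471), which is a call. Of the 50-base windows of the Tdg transcript, 57.1% recur exactly in other genes, among them the pseudogenes Tdg-ps, Gm9855 and Gm5597, and reads with more than 1 place were dropped, so the Tdg count is uncertain. None of the windows in the last 500 bases recur, and those pseudogenes had 1, 73 and 0 reads in all 18 libraries.

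**Figure D2:**
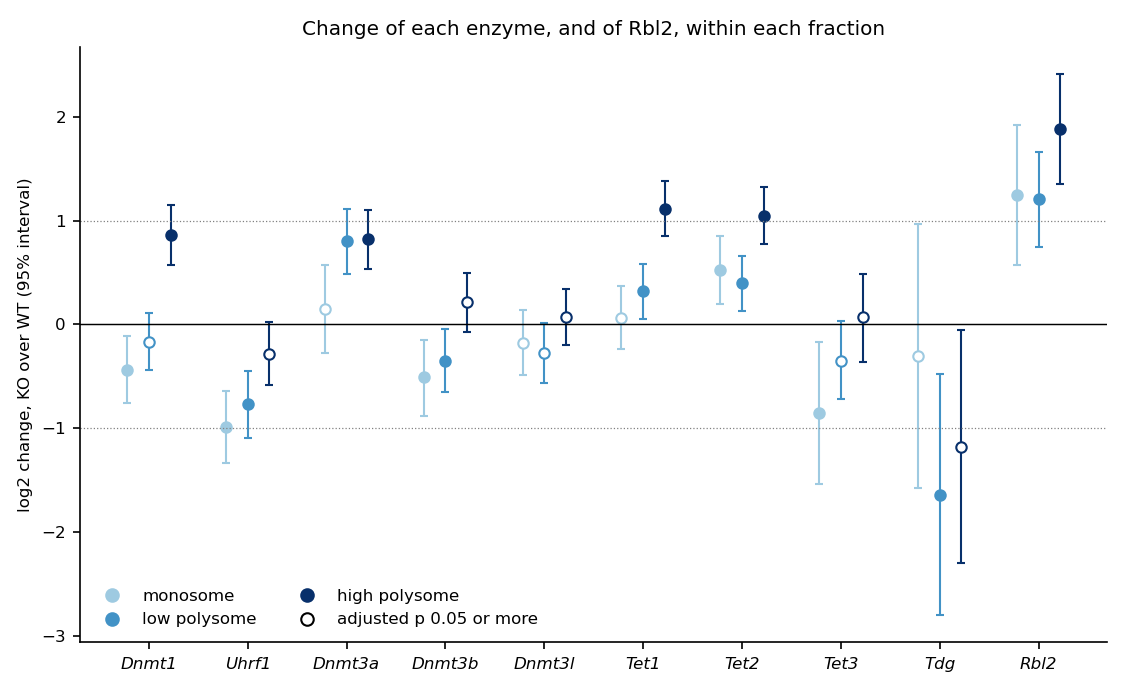
Log2 change of KO over WT (y axis) for the 9 enzymes and Rbl2 in each fraction, with 95% intervals from limma; open circles have an adjusted p of 0.05 or more and dotted lines mark the fold threshold. Dnmt1 is below 0 in monosomes (-0.44) and above it in high polysomes (0.86), and Rbl2 is above 1 in all 3 fractions.

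The second question was whether the translation level, the high polysome to monosome ratio, changed with loss of microRNAs. It rose in KO cells for 5 of the 9 enzymes (Dnmt1, Dnmt3a, Dnmt3b, Uhrf1 and Tet1) and fell for none, where 13% of all genes rose and 15.2% fell. Dnmt1 and Tet1 were called, against 15.1% of all genes. The median change of the 9 was 0.71 and that of all genes 0.0073. These values for all genes cover coding sequences of every length, and the shortest decile had a median change of -0.94. The enzymes that rose lie in deciles of length with medians of 0.33 (Uhrf1), 0.49 (Dnmt3a and Dnmt3b) and 0.62 (Dnmt1 and Tet1). The share of genes of like length that rose was not tested. The counts of enzymes rest on the scaling, since total counts shifted the median of all genes by -0.33. Then only Dnmt1 (0.97) and Tet1 (0.72) rose, with no call. With no filter, without WT replicate 2 and without KO replicate 3, Dnmt1 and Tet1 were again the only members that rose, and Dnmt1 alone was called in each of these as well as without KO replicate 1. Fractions of 1 gradient belong together, and with the gradient as a block Tet2 and Tet3 passed too, with changes of 0.52 (adjusted p = 0.0146) and 0.95 (adjusted p = 0.0432), so that 7 rose.

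In single gradients the log2 ratio of Dnmt1 was -0.15, -0.37 and -0.34 in WT and 1.23, 0.52 and 1.27 in KO cells. The share of Dnmt1 was thus lower in high polysomes than in monosomes in every WT gradient and higher in every KO gradient. In limma the WT ratio did not pass (-0.28, 95% interval -0.6 to 0.037, adjusted p = 0.131). The change between genotypes was 1.29 (SE 0.22, 95% interval 0.86 to 1.73, adjusted p = 1.24e-05), and all 14 alternatives passed, with 0.97 to 1.54. For Tet1 the ratios were 0.10, 0.14 and 0.30 in WT and 1.40, 0.94 and 1.31 in KO gradients, again apart. Its change was 1.05 (SE 0.20, adjusted p = 1.04e-04), and all 14 alternatives passed, with 0.72 to 1.19.

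Uhrf1 had ratios of -0.46, -0.27 and -0.15 in WT and 0.69, -0.19 and 0.72 in KO gradients. KO replicate 2 lay among the WT gradients. The change of 0.71 (SE 0.23, adjusted p = 0.0158) was 1.01 without this gradient, and adjusted p reached 0.13 when others were left out, being over 0.05 without KO replicate 1 or 3 and without WT replicate 1 or 2. Among the DNMT3 genes, Dnmt3b had ratios of 0.040, 0.14 and 0.36 in WT and 0.85, 0.72 and 1.01 in KO gradients (change 0.73, SE 0.23, adjusted p = 0.0139), and Dnmt3a 0.96, 0.53 and 0.23 against 1.07, 1.30 and 1.31 (change 0.67, SE 0.25, adjusted p = 0.0436). Both pairs of groups were apart, but the adjusted p of Dnmt3b passed in 9 and that of Dnmt3a in 7 of 14 alternatives. Dnmt3b lost it without KO replicate 3 and without WT replicate 1 or 2, and Dnmt3a without KO replicate 2 or 3 and without WT replicate 2 or 3. Dnmt3l ratios were high in both genotypes, at 0.94, 0.57 and 1.07 in WT and 1.30, 0.95 and 1.04 in KO gradients, and its change was 0.25 (95% interval -0.17 to 0.66).

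The Tet2 ratios were 0.57, 0.87 and 0.64 in WT and 1.08, 1.15 and 1.43 in KO cells, and the Tet3 ratios 0.85, 0.10 and 0.13 against 0.97, 1.12 and 1.53. KO lay above WT in both, and the changes of 0.52 (SE 0.21, adjusted p = 0.0582) and 0.92 (SE 0.40, adjusted p = 0.0804) missed the threshold without the block. Without it Tet3 passed with edgeR (0.97, adjusted p = 0.0424), where 6 of the enzymes rose, and Tet2 passed without KO replicate 1 (0.59, adjusted p = 0.0276) and without KO replicate 2 (0.56, adjusted p = 0.040). For Tdg the change was -0.87, with a 95% interval of -2.57 to 0.82 that leaves its direction unknown.

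Within genotypes, the ratio of high polysomes to monosomes was above 0 in WT cells for 3 enzymes, Dnmt3l (0.85, adjusted p = 7.07e-06), Tet2 (0.70, adjusted p = 2.78e-04) and Dnmt3a (0.59, adjusted p = 0.0109), and below 0 for none that passed, where 26.0% of all genes were above and 28.0% below. None was called in WT cells by limma, edgeR or DESeq2, against 30.1% of all genes. In KO cells 8 of the 9, all but Tdg, were above 0 and none below, where 32.2% of all genes were above and 35.5% below. Of these, 6 were called (Dnmt1, Dnmt3a, Dnmt3l, Tet1, Tet2 and Tet3, with 1.01 to 1.30), against 43.0% of all genes. With total counts 7 still passed in KO cells and Uhrf1 did not (0.17, adjusted p = 0.369). Its main value of 0.41 also lost the test under the stricter filter (0.30, adjusted p = 0.0923), without KO replicate 1 (0.29, adjusted p = 0.167) and without KO replicate 3 (0.24, adjusted p = 0.306). In WT cells Dnmt3a did not pass without WT replicate 1 (0.39, adjusted p = 0.195).

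**Figure D3:**
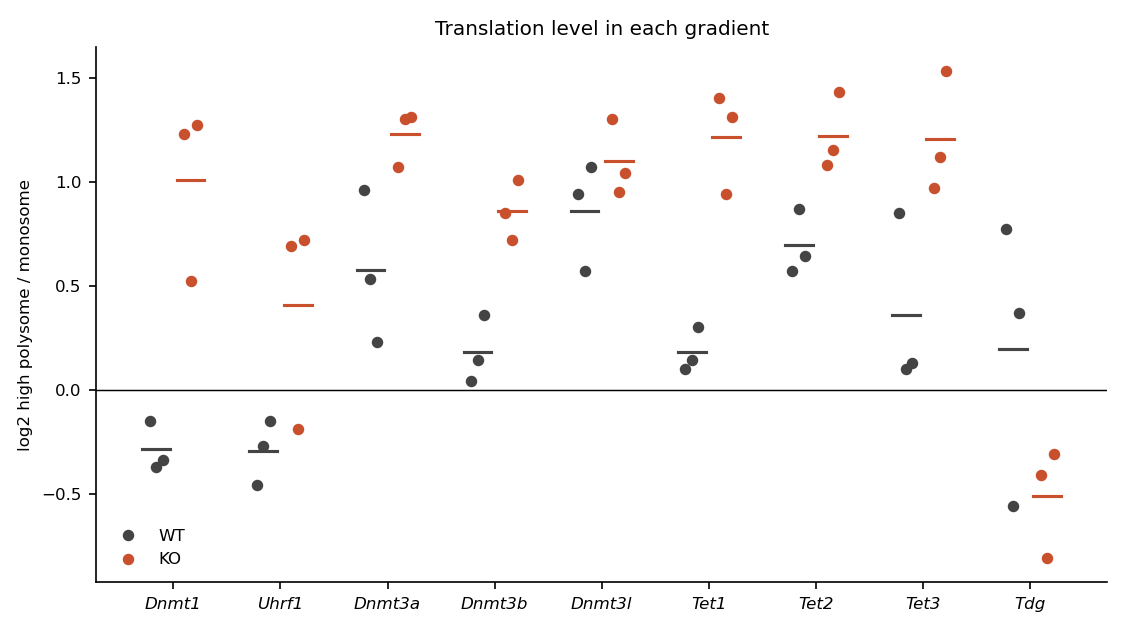
Log2 ratio of high polysomes to monosomes (y axis) in each of the 3 WT (grey) and 3 KO (red) gradients for the 9 enzymes; short lines are means. WT and KO gradients are apart for Dnmt1, Dnmt3a, Dnmt3b, Tet1, Tet2 and Tet3, and for Uhrf1 KO replicate 2 (-0.19) lies among the WT gradients.

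Length of the coding sequence (CDS) moved with the change in translation level across all genes. Over the deciles of CDS length of 11763 protein-coding genes, the median change was -0.94 for the shortest genes and 0.62 for the longest ones, and most of these enzymes are long. Dnmt1, Tet1, Tet2 and Tet3, with coding sequences of 4863, 6120, 5739 and 5412 nucleotides, are in the longest decile, and Dnmt1 lay above 88.2%, Tet1 above 77.0%, Tet3 above 70.0% and Tet2 above 41.5% of its genes. Dnmt3a (2727 nucleotides) and Dnmt3b (2580) lay above 61.3 and 65.4% of the genes of a decile with a median of 0.49, and Uhrf1 (2349) above 71.7% of the next shorter decile, with a median of 0.33. Dnmt3l and Tdg, both of 1266 nucleotides, are in a decile with a median of -0.038. After the trend with CDS length was subtracted, 0.66 was left for Dnmt1, 0.36 for Tet1, 0.34 for Uhrf1 and 0.31 for Dnmt3b. What was left was 0.26 for Dnmt3l and Tet3, 0.22 for Dnmt3a, -0.15 for Tet2 and -0.86 for Tdg. Only the values of Dnmt1, Tet1, Uhrf1, Dnmt3b, Dnmt3l and Tdg exceed the SE of the unadjusted change, which is not a test. This SE was 0.22 for Dnmt1, 0.20 for Tet1 and 0.23 for Uhrf1 and Dnmt3b. It was 0.21 for Dnmt3l and 0.84 for Tdg, which exceed it by little. The part of length in these results was not tested further.

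**Figure D4:**
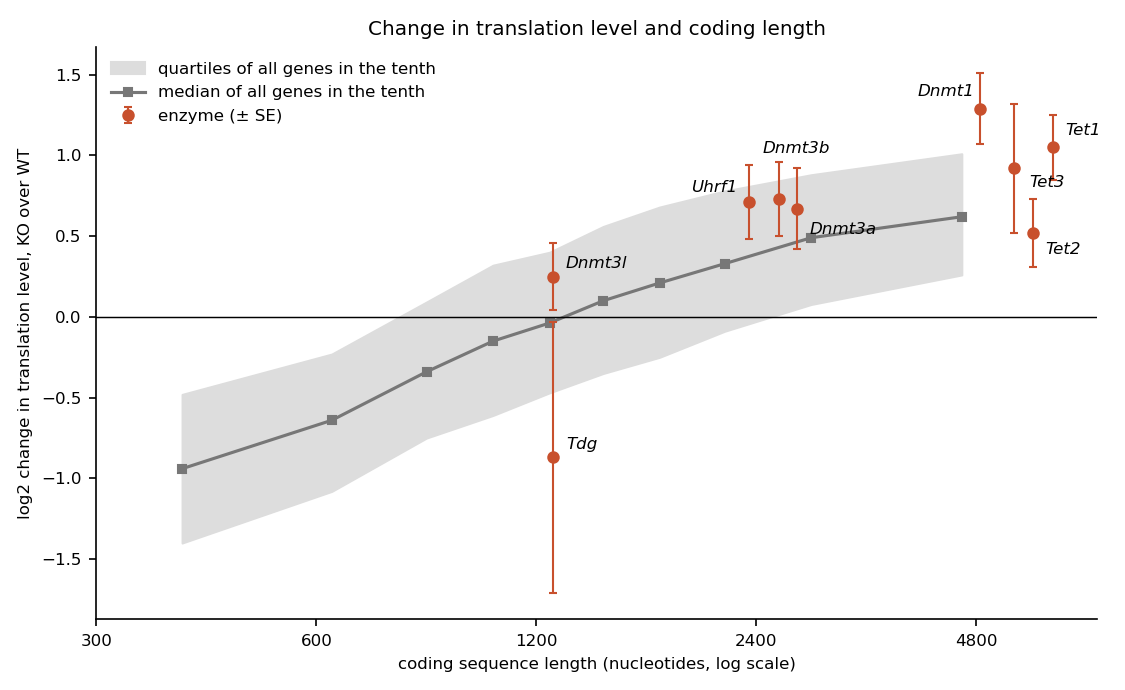
Log2 change in translation level, KO over WT (y axis), against CDS length in nucleotides (x axis, log scale). Squares and the grey band are the median and quartiles of all genes in each decile of length, at its median length, and red points the 9 enzymes with SE. The medians run from -0.94 to 0.62, and Dnmt1 (1.29) and Tet1 (1.05) lie above the upper quartile of the longest decile (1.01).

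Rbl2 (ENSMUSG00000031666, chr8:91070057-91123844, plus strand), through which the effect on methyltransferases had been reported to run, was higher in KO cells in every fraction. Its WT levels were 8.04, 5.81 and 9.73 CPM in monosomes, 7.05, 9.48 and 11.1 CPM in low and 5.85, 6.85 and 6.05 CPM in high polysomes. Its KO levels were 18.3, 19.4 and 17.6, 18.7, 22.4 and 23.1, and 29.8, 18.9 and 23.2 CPM, so that each KO library lay above all WT libraries. It was called in the 3 fractions, with log2 changes of 1.25 (SE 0.33, adjusted p = 0.00285), 1.21 (SE 0.23, adjusted p = 1.98e-05) and 1.88 (SE 0.26, adjusted p = 7.94e-08), and passed in all 14 alternatives. Its translation level changed by 0.63 (95% interval -0.22 to 1.49, adjusted p = 0.283). Beside it, the DNMT3 genes did not share a direction within fractions. Dnmt3a rose in polysomes, and Dnmt3l did not pass in the main fit. Dnmt3b fell in monosomes and low polysomes, with each fall held by 8 of 14 alternatives. These levels are shares of a fraction, and total mRNA was not examined. The reported route through Rbl2 was therefore not tested.

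Of the 9 retinoblastoma and E2F genes listed, 1 rose and 3 fell in monosomes, 3 rose and 3 fell in low polysomes, and 2 rose and 3 fell in high polysomes, with medians of -0.10, -0.20 and 0.14. Rbl1, the sister of Rbl2, rose in low (0.92, adjusted p = 5.72e-05) and high polysomes (1.11, adjusted p = 1.79e-07), and Rb1 in low polysomes (1.02, adjusted p = 0.00806). E2f4, the repressive E2F that RBL2 binds, fell in all 3 (-0.77, -0.98 and -0.99, adjusted p = 2.55e-04, 2.38e-07 and 1.60e-06). The 12 genes of S phase, when maintenance methylation takes place, had more falls than rises outside high polysomes: 7 fell and none rose in monosomes, 7 fell and 2 rose in low polysomes, and 3 fell and 3 rose in high polysomes, with medians of -0.50, -0.43 and 0.10. Over all genes 19.9% fell and 17.5% rose in monosomes, 26.2% and 26.1% in low, and 31.6% and 29.1% in high polysomes, and these shares are the background of every list here. Rrm2, a subunit of ribonucleotide reductase, fell in each fraction (-1.35, -0.98 and -1.05). So did the helicase subunits Mcm5 (-1.33, -0.82 and -0.44) and Mcm4 (-1.02, -0.76 and -0.51). Mcm2 fell in monosomes and low polysomes (-0.79 and -0.72). The S phase genes that rose were Ccne1 in low and high polysomes (0.54 and 0.62) and Tyms in low polysomes (0.37). In high polysomes Rrm1 (0.56) and Mcm7 (0.52) rose as well. As a description of promoters, the letters TTTNNCGC of an E2F-like motif (either strand, 250 bases before to 50 after a start) were in 5.17% of 32851 RefSeq promoter windows and in 6 of 11 windows of S phase genes. Among the enzymes they were in 3 of 16 windows: both windows of Uhrf1, 1 of 3 of Dnmt1, and none of the others. They were also in 3 of 8 windows of the retinoblastoma and E2F genes. The partners of maintenance methylation, listed below, had them in 3 of 8 windows too. The part of this motif in the changes was not tested.

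**Figure D5:**
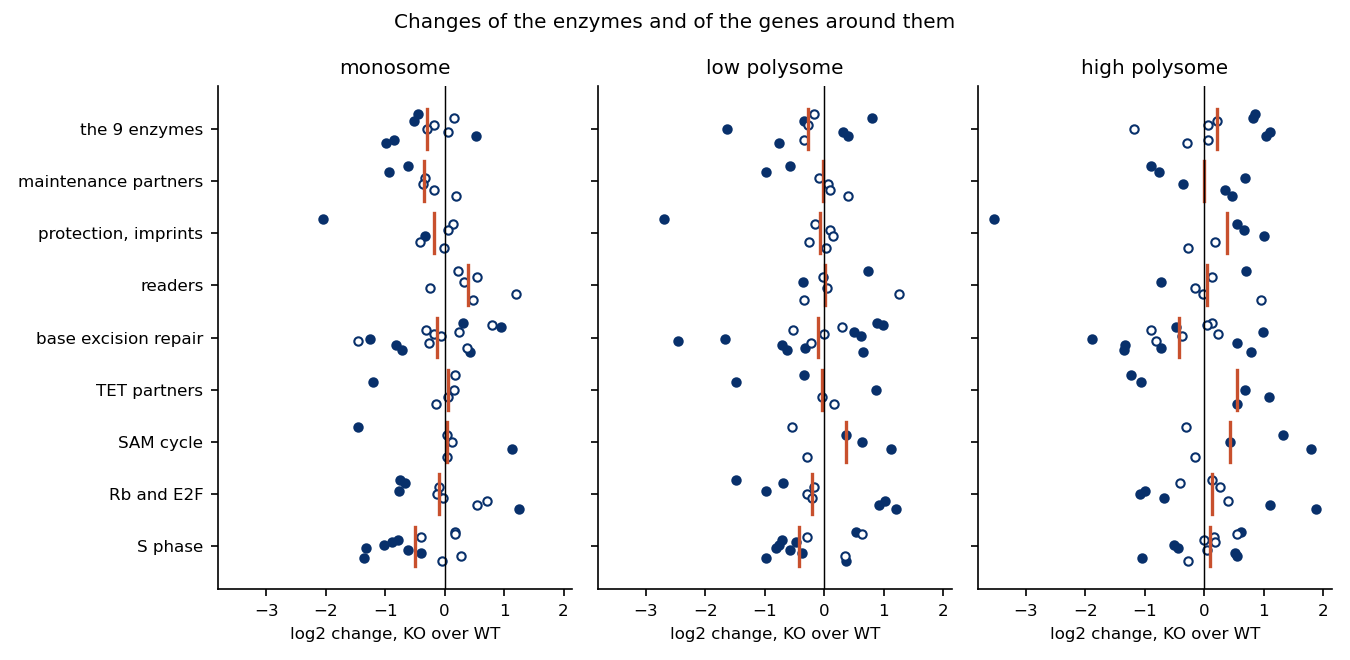
Log2 change of KO over WT (x axis) in each fraction for the 9 enzymes and the genes listed around them. Each point is a gene tested, filled where its adjusted p is under 0.05, and red lines are medians of a list. The S phase median is -0.50 in monosomes and 0.10 in high polysomes, and the far left point of the protection list is Dppa3 (-2.04, -2.70 and -3.54).

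Partners of maintenance methylation had 2 falls of 6 in monosomes and low polysomes, and 3 falls and 3 rises in high polysomes. Hells, a chromatin remodeller (-0.94, -0.98 and -0.76), and its activator Cdca7 (-0.62, -0.57 and -0.89) fell in every fraction, with adjusted p of 4.52e-04 or less. Pcna, the replication clamp, fell in high polysomes (-0.36, adjusted p = 0.0185), and Zbtb24, which regulates Cdca7, rose there (0.47, adjusted p = 0.027). Of 6 genes that protect or exclude methylation, 2 fell in monosomes, 1 fell in low polysomes, and 3 rose and 1 fell in high polysomes. Dppa3 (Stella), which keeps UHRF1 from chromatin, had the largest change of the genes in the pathway lists, in high polysomes, and was called lower in each fraction (-2.04, -2.70 and -3.54, adjusted p = 4.56e-08, 4.51e-14 and 1.03e-14). In high polysomes Trim28, a corepressor at imprints, rose by 1.01 (adjusted p = 3.46e-10), the histone methyltransferase Setdb1 by 0.67 (adjusted p = 0.00154) and Prdm14, which represses the DNMT3 genes, by 0.56 (adjusted p = 0.0154). Trim28 fell in monosomes (-0.33, adjusted p = 0.0276).

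Past oxidation, 14 base excision repair and Gadd45 genes had 3 rises and 3 falls in monosomes, 5 and 5 in low polysomes, and 3 and 5 in high polysomes, of which those in monosomes are near the shares of all genes (17.5% and 19.9%). The glycosylase gene Neil2 was called lower throughout (-1.25, -1.67 and -1.89, adjusted p of 3.01e-05 or less). Ung, which excises uracil (-0.71, -0.62 and -1.35), and Polb, which fills the gap (-0.81, -0.71 and -1.33), fell in each fraction. Neil3 fell in low polysomes (-2.46, adjusted p = 0.00252). Other repair genes went up: Xrcc1 rose in each fraction (0.43, 0.65 and 0.79). Apex1 rose in monosomes and low polysomes (0.31 and 0.88), and Lig3 in low and high polysomes (0.50 and 0.99). Gadd45a (0.99) and Neil1 (0.62) rose in low polysomes alone, and Parp1 in high polysomes alone (0.56). Gadd45b rose in monosomes (0.95) and fell in high polysomes (-0.47). Of 5 TET partners tested, Idh1, which makes the cofactor 2-oxoglutarate, was called lower throughout (-1.20, -1.49 and -1.06, adjusted p of 2.68e-06 or less). Its mitochondrial counterpart Idh2 rose in low and high polysomes (0.87 and 0.68), Cxxc5 fell in low and high polysomes (-0.35 and -1.23), and the TET-binding Ogt rose in high polysomes (1.09). Of 5 genes of the S-adenosylmethionine cycle, which supplies the methyl group, Mtr, methionine synthase, was called higher throughout (1.13, 1.12 and 1.80, adjusted p of 5.07e-07 or less), Mat2a, which makes S-adenosylmethionine, rose in low and high polysomes (0.37 and 1.32), Mat2b in the same fractions (0.64 and 0.44), and Ahcy fell in monosomes (-1.45, adjusted p = 2.88e-05). Of 6 readers of methylated DNA none passed in monosomes, and 1 rose (Mbd1, 0.73 and 0.71) and 1 fell (Mbd3, -0.36 and -0.72) in both polysome fractions. The paralogues Trdmt1 and Uhrf2 did not pass in any fraction.

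Across the 18 libraries, which share fractions and genotypes, the genes whose log2 CPM was most like that of an enzyme were Agrn for Dnmt1 (Pearson's r = 0.874), Mcm5 for Uhrf1 (0.931), Notch4 for Dnmt3a (0.974), Trappc9 for Dnmt3b (0.882), Actl6a for Dnmt3l (0.942), Tmem245 for Tet1 (0.967), Ncor1 for Tet2 (0.983), Man2a2 for Tet3 (0.931) and Aurkc for Tdg (0.827). Among the enzymes, the pairs most alike were Tet1 with Tet2 (0.94) and Dnmt3b with Dnmt3l (0.82), and the least alike was Uhrf1 with Tet2 (-0.55). Dnmt1 and Uhrf1, which act together, had an r of 0.074.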

How the data were processed

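Libraries were grouped by genotype and fraction from the labels. The deposited values are raw counts per gene. The authors trimmed reads with cutadapt 1.14, aligned them to mm10 with STAR 2.5.3a keeping reads with a single place, and counted them by strand with featureCounts 1.5.3 over GENCODE M14 without ribosomal RNA. No molecular identifiers were stated, so counting precision does not cover PCR copies. The 92 spike-in entries were left out. Annotation came from GENCODE M21 (GRCm38), which matched 51274 of the 51467 genes.

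The 12851 genes that reached 3 CPM in 3 libraries entered limma-voom (limma 3.58.1, R 4.3.3; TMM scaling), with 1 mean per group and no block. Contrasts were KO against WT per fraction, the high polysome to monosome ratio per genotype and its change. Adjusted p are Benjamini-Hochberg values over all genes tested, from two-sided tests. The limma interaction follows the study's methods, and the thresholds (adjusted p under 0.05, log2 change over 1) are those it gives for another comparison. Ratios in single gradients use log2 CPM with a prior count of 2. The trend with CDS length is a loess fit (span 0.75). With total counts of 1151649 to 4984833, 3 counts are about 2.65 CPM in the smallest library. The fits were tested on simulated data. Alternatives were edgeR 4.0.16, DESeq2 1.42.0, total counts, DESeq2 size factors, no filter or one of 10 CPM, a fit of only the libraries compared, a replicate block and leaving out each gradient. Fractions of a gradient are paired by the labels, and their deviations from group means correlated at 0.031 to 0.254 over 7151 genes.

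All 9 enzymes are named, with Dgcr8, Rbl2, for each list but those of cell type markers up to 4 genes with the largest mean change over the fractions among those with an adjusted p under 0.05 in at least 1, and for each enzyme the gene of highest Pearson's r. Rising genes of the S phase and repair lists are also named, beyond this rule and after their values were seen. The members and lists were chosen with earlier results of these data known.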

Additional observations from a re-analysis of the deposited data

Results flagged for a closer look

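For 5 enzymes the effect of genotype differed between high polysomes and monosomes by the interaction term in limma: Dnmt1 by 1.29 on the log2 scale (adjusted p = 1.24e-05), Tet1 by 1.05 (adjusted p = 1.04e-04), Dnmt3b by 0.73 (adjusted p = 0.0139), Uhrf1 by 0.71 (adjusted p = 0.0158) and Dnmt3a by 0.67 (adjusted p = 0.0436). In each of them the change was more positive in high polysomes. Of the 12851 genes tested, 1671 rose and 1950 fell by the same term. Dnmt1 and Tet1 passed in all 14 alternatives, Dnmt3b in 9, Uhrf1 in 8 and Dnmt3a in 7. After the trend with CDS length was subtracted, 0.66 was left for Dnmt1, 0.36 for Tet1 and 0.34 for Uhrf1. For Dnmt3b 0.31 was left. For Dnmt3a 0.22 was left, which is below the SE of 0.25 of its unadjusted change. With 3 libraries a group, no test of a single library against the others of its group was made.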

How the results depend on the processing

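Counts of called enzymes were 0, 1 and 2 for KO against WT in monosomes, low and high polysomes, 2 for the change in translation level, and 0 and 6 for the level in WT and KO cells. Of all genes, 18.1, 25.0, 33.1, 15.1, 30.1 and 43.0% were called in this order. These shares are from the main fit, and none are given for the other settings. With no fold threshold the counts of enzymes were 5, 6, 4, 5, 3 and 8. Total counts gave 1 in high polysomes (Tdg, lower, with the calls of Tet1 and Tet2 lost), 0 for the change and 2 for the level in KO cells. The stricter filter gave 1 in monosomes, 0 in low polysomes, since Tdg was not tested, and 1 in high polysomes. For the change, no filter gave 1 and only the libraries compared gave 1. With each gradient left out, the counts were 0 to 1, 0 to 1, 1 to 3, 1 to 3, 0 to 1 and 4 to 6. The replicate block moved no count by more than 1.5 times, with 3 called in high polysomes (Tdg added), where KO and WT libraries of 1 number correlated at 0.144, 0.131 and 0.168. Over all fractions these correlations were -0.0151 to 0.192, and the labels give KO and WT nothing shared but the number. Directions that turned were all of changes that had not passed: under total counts Dnmt3b (-0.0070), Dnmt3l (-0.15) and Tet3 (-0.15) in high polysomes and the Dnmt3l change in translation level (-0.081), after the length trend Tet2 (-0.15), and with a gradient left out Dnmt3l (range -0.043 to 0.19) and Tet3 (-0.17 to 0.25) in high polysomes, Tet1 in monosomes (-0.071 to 0.25) and Tdg in the WT level (-0.17 to 0.64). Of 813 values of the enzymes, 741 kept their direction and their side of the call, 23 lost and 32 gained the call, 11 turned and 6 were smaller by more than their SE after the length trend. The call was by adjusted p and fold together, except in the setting with no fold threshold. That setting keeps the change of the main fit, so a gain there follows from the dropped threshold alone. By adjusted p alone, 59 of 750 values lost and 17 gained the test. The cause was not tested. Depth limits Tdg (2 to 15 counts) and Tet3 (16 to 115).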
